A study of Mus musculus with 45 samples.

Results

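Pseudogenes that gave reads in single mouse oocytes were described across oocytes of different age, follicle and culture. A row of the count table was taken when its biotype contained the word pseudogene, its mean over all 45 libraries reached 20 CPM (a gene's count as a rate per 1e6 counts of the library) and it did not lie on the mitochondrial chromosome. This gave 363 pseudogenes of 13739 pseudogene rows, in a table of 55357 genes. The pseudogenes were thus chosen by their mean CPM, so levels are given as a description without a test. Gm13461 (20.2 CPM), Gm12112 (20.1 CPM) and Gm10254 (20.004 CPM) lay just inside the limit, and Rpl38-ps2 (19.9 CPM), Gm5815 (19.8 CPM) and Gm25432 (19.8 CPM) just outside it.

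Each library held the RNA of 1 oocyte. In a reconstituted chimeric follicle (RCF) the native oocyte is removed, another oocyte is put in its place and the follicle is cultured. The groups were young oocytes with young somatic cells (YY, n = 11), aged oocytes with young somatic cells (AY, n = 6), aged oocytes with aged somatic cells (AA, n = 12) and, as controls without such an exchange, young oocytes that were cultured (in vitro young, n = 8) or not (in vivo young, n = 8). The labels name neither strain nor the age of the mice in numbers, nor the animal that each oocyte came from, so each p-value covers the spread between these oocytes alone, part of which may be technical or due to a small number of mice. Each group has its own range of library numbers, and these ranges do not overlap. A difference between groups therefore cannot be told apart from one between series of libraries, and what the numbers stand for is not stated. Library totals ranged from 418703 to 2201980 counts. All 12 oocyte markers looked up (Zp1, Zp2, Zp3, Gdf9 and others) were detected in every group.

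A pseudogene is a copy of a gene that is annotated as having lost its protein-coding function. A processed pseudogene arises when a messenger RNA is copied back into DNA and inserted elsewhere, so it lacks introns and often resembles the spliced parent transcript closely. An unprocessed pseudogene arises by duplication of a stretch of genome. The growing oocyte is known to store large amounts of messenger RNA and to use pseudogene transcripts as a source of small interfering RNAs, which makes it a cell type in which pseudogene transcripts have been studied. Because a short read can fit both a copy and its source, counts of either gene can hold reads of the other. The handling of reads that fit several genes, and of strand, is not stated in the sources used here.

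Of the 363 pseudogenes, 328 were of a processed kind, of which 24 carried the label of a transcribed one. Another 16 were unprocessed, 14 were transcribed unprocessed and 1, 9330102E08Rik, was a translated unprocessed pseudogene. The last 4 were 2 polymorphic pseudogenes, Dicer1 and Oas1b, and 2 rows with the plain label. Dicer1 codes for the nuclease that cuts longer RNAs into small RNAs. It is listed because the deposited annotation labels it polymorphic, not because it is a copy. It and the other genes marked here as chosen after their values were seen lie outside the rule for named genes.

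A parent gene was found for 349 of the 363, for 79 by symbol and for 270 by the best sequence match, and 14 had none. Symbol and sequence gave the same parent in all 78 cases that had both. The pseudogenes traced back to 280 parents. Median identity to the parent transcript was 98.7% over the aligned part, and 298 pseudogenes reached 95%. A median of 53.4% of all 50-base windows of a pseudogene occurred letter for letter in its parent's transcripts, and in 32 pseudogenes every window did. Transcript sequences came from GENCODE M21, on the build GRCm38, and gene positions were taken from the count table, which is on mm39.

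Stretches of 120 bases from 4 pseudogenes and the coding part of their parents are shown because the results below turn on these pairs and because they differ in how many letters tell them apart. Each is the stretch without gaps that holds the most differences, and capitals mark the bases that differ within the pair. The first pair is Ldhb-ps (bases 262 to 381 of its transcript, a processed pseudogene on chromosome 19) and Ldhb (bases 373 to 492), which codes for the B subunit of lactate dehydrogenase. They differed at 20 of 1002 aligned bases.
Ldhb-ps: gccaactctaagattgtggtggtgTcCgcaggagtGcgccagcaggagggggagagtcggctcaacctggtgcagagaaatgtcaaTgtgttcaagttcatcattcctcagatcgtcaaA
Ldhb: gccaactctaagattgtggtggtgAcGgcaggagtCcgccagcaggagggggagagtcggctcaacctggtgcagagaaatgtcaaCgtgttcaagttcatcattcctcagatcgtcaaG
The second pair is Gm4350 (bases 93 to 212, chromosome 14) and Oog3 (bases 825 to 944), a gene of the PRAME family that is active in oocytes. They differed at 4 of 575 aligned bases.
Gm4350: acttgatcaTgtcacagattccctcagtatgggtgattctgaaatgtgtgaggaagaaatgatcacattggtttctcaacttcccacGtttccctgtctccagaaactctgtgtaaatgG
Oog3: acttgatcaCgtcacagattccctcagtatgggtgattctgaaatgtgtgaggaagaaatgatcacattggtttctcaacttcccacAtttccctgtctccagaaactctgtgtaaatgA
The third pair is Gm12346 (bases 186 to 305, chromosome 11) and Hsp90aa1 (the stretch ending at base 397), the inducible cytosolic HSP90 chaperone. They differed at 11 of 2255 aligned positions, with 1 gap.
Gm12346: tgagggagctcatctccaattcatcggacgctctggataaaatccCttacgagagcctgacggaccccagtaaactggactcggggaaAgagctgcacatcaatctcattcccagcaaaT
Hsp90aa1: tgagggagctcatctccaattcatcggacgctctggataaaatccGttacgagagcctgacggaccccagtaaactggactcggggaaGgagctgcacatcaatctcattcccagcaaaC
In the last pair, Rps16-ps2 (bases 1 to 120, chromosome 5) and Rps16 (from base 153), which codes for a protein of the small ribosomal subunit, the 441 aligned bases held 0 differences, so the stretch is the same in both.
Rps16-ps2: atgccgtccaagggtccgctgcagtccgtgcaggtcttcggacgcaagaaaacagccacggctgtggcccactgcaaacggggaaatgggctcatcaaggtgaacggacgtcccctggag

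The pseudogenes took between 3.25% and 3.71% of the counts of a library. The median share was 3.49% in vivo, 3.39% in vitro, 3.39% in YY, 3.60% in AY and 3.48% in AA, and the ranges of all 5 groups overlapped. The median level was 44.6 CPM. Of the pseudogenes, 73 reached 100 CPM, and the 10 with the highest mean held 31.9% of all pseudogene CPM. 361 of the 363 were detected in all 45 libraries.

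The 5 pseudogenes with the highest mean were E330034G19Rik (2773 CPM), Ldhb-ps (1948 CPM), Ubb-ps (1764 CPM), Dppa3-ps (1085 CPM) and Gm1070 (1042 CPM). Per kilobase of the annotated transcript the order was different, with Dppa3-ps at 2405, Ubb-ps at 2352, Ldhb-ps at 1944 and E330034G19Rik at 1796 CPM per kb. Dppa3 codes for a maternal protein that protects the oocyte genome's methylation pattern, and Ubb for a chain of ubiquitin units. Their parents stood higher on the same scale, Dppa3 at 4604, Ubb at 4497 and Ldhb at 5882 CPM per kb. E330034G19Rik and Gm1070, both transcribed unprocessed pseudogenes, had no parent under the rule. The next 5 by CPM were Gm15459, Gm12226, Nlrp4g, Gm5946 and Rpl37rt, at 714 to 391 CPM.

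In several of these pairs the pseudogene stood above its parent. Gm15459, a copy of the constitutive chaperone gene Hspa8 with 99.7% identity, had 368 CPM per kb against 122 for Hspa8. Rpl37rt, whose match covers 50.4% of its transcript, had 573 against 67.9 for Rpl37, a gene of the large ribosomal subunit. Gm5946 had 147.6 against 87.3 for Bmi1, a Polycomb gene. Over all 349 pairs, 171 pseudogenes (49.0%) had a higher CPM per kb than their parent. The length used was the longest transcript of the pseudogene and the best-matching transcript of the parent, so the count depends on this choice. Rps16, for example, was scaled by a transcript of 1109 bases and Rps16-ps2 by 1 of 441. The pseudogenes were also kept only at 20 CPM or more, while their parents had no such limit, so the count depends on that rule too. The share varied with sequence. It was 69.7% (23 of 33) where under 10% of the windows were shared with the parent and 17.1% (21 of 123) at 10 to under 50%. It was 59.6% (84 of 141) at 50 to under 90% and 65.0% (13 of 20) at 90 to under 100%. Where all windows were shared it was 93.8% (30 of 32). It thus rose with shared sequence except in the lowest class. Of the 33 in that class, 10 had the same best match, Gm19965, at 1.93 CPM. The median level of the parents was 7.56 CPM in that class and 292 CPM in the next. Among the 32 with all windows in the parent, Rps16-ps2 had 166 against 13.5 CPM per kb for Rps16. Chosen after their values were seen, Gm9843 had 442 against 111 for Fau and Apoo-ps had 197 against 30.1 for Apoo. In these 32 the letters of the pseudogene's transcript cannot tell the 2 genes apart, and which of them gave the reads was not tested.

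**Figure D1:**
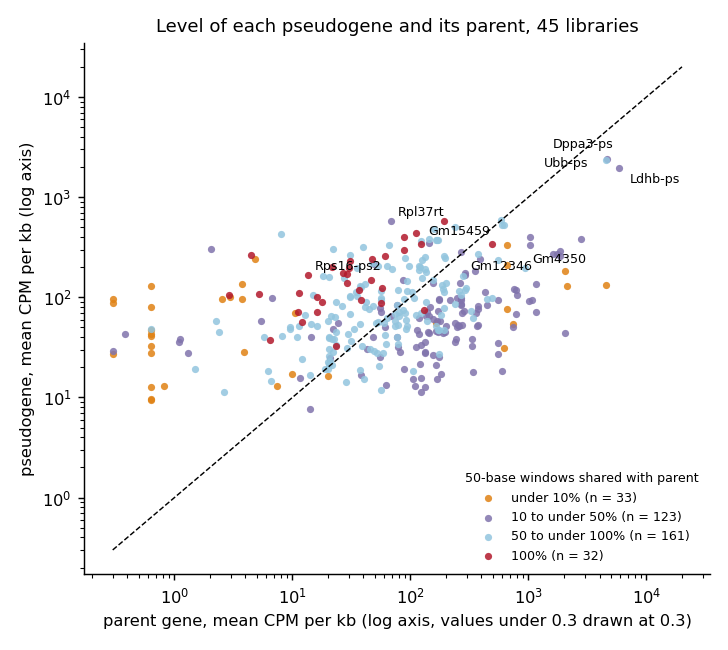
Mean level of each of 349 pseudogenes (vertical axis) against its parent gene (horizontal axis) over 45 libraries, both in CPM per kilobase on log axes, coloured by the percentage of the pseudogene's 50-base windows found in the parent. The dashed line marks equal levels. Of the 32 pseudogenes with all windows in the parent, 30 lie above it.

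Ribosomal protein genes were the source of 46 pseudogenes from 37 parents. 35 of the 46 stood above their parent per kb, and the summed mean of the 46 was 2678 CPM against 2115 CPM for the 37 parents. The 46 were kept for reaching 20 CPM, while the parents had no such limit, so both values depend on that rule. In 36 of the 46 at least 50% of the windows occurred in the parent.

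Some pseudogenes lay side by side. Of those, 10 had Gm19965 on chromosome 1 as their best match, at 80.1% to 88.0% identity, and all 10 lay on chromosome 6 between 130460152 and 131159343. They ranged from Gm21940 (335 CPM) and Gm44133 (208 CPM) down to Gm5581 (24.3 CPM), while Gm19965 had 1.93 CPM. At most 0.5% of the windows of a member of this group occurred in Gm19965. Up to 43.6% occurred in a transcript of some other gene. For each of the 10, the gene that shared the most windows was another of the 10. Of the 10, Gm44133 was the only one called in any of the 5 comparisons below. On chromosome 9, Nlrp4g (428 CPM), Gm47182 (92.2 CPM) and Gm47180 (83.1 CPM), related to the oocyte NLRP gene Nlrp4f on chromosome 13, lay between 124101219 and 124128201. Apart from Gm44133 and Nlrp4g, the pseudogenes of these groups lie outside the rule for named genes.

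78 pseudogenes lay within the span of a coding gene, of which 17 had a host with a higher mean CPM than their own. Gm12346 (chromosome 11, 77184270 to 77186725) lies within Ssh2, on the same strand, and Ssh2 had medians of 8.84 to 12.7 CPM in the 5 groups against 302 to 478 CPM for Gm12346 (CPM here and in all values per group is scaled by TMM, a factor that evens out the composition of libraries).

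A pseudogene and its parent could be compared oocyte by oocyte. After the mean of each group was taken out, Pearson's r between the log2 levels of a pseudogene and its parent over 45 libraries had a median of 0.37 among the 290 pairs whose parent reached 20 CPM. It ranged from -0.536 (Gm15772 and Rpl26) to 0.996 (Gm4350 and Oog3). It was 0.955 for Nlrp4g and Nlrp4f, 0.931 for Ubb-ps and Ubb, 0.917 for Dppa3-ps and Dppa3, and 0.822 for Gm12346 and Hsp90aa1. The points share library and depth, and shared reads enter both values, so r is given as a description without a test.

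Gm4350 was the only pseudogene with a gap of at least 3 log2 units between its low and its high libraries. Its count was 0 or 1 in 11 libraries, whereas the remaining 34 each had 67 or more. The 11 libraries were YY replicates 1, 3 and 4, AY replicates 2, 3, 4 and 5, AA replicates 3, 5 and 9, and in vitro young replicate 2. Oog3 had 0 counts in the same 11. Among the 8 in vivo oocytes Gm4350 ranged from 94.4 to 219 CPM with a median of 144, so none was without it. In the other groups the lowest value was 0 and the highest was 256.4 in vitro, 196 in YY, 128.7 in AY and 231.3 in AA. The 5 comparisons of Gm4350 gave edgeR adjusted p-values between 0.336 and 0.991.

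Ldhb-ps fell into separate levels relative to Ldhb. Its share of the summed counts of Ldhb-ps and Ldhb was between 13.5% and 17.5% in 24 libraries, between 23.6% and 25.8% in 17, and between 35.6% and 36.7% in 4, with no library between these ranges. The gaps were 6.1 and 9.8 percentage points. The 95% Wilson intervals of single libraries spanned 12.9% to 18.9% in the first range, 22.6% to 27.1% in the second and 34.5% to 37.99% in the third, and they cover counting error only. All 12 AA oocytes lay in the lowest range. AY replicates 1 and 6 lay there too, and AY replicates 2 to 5 were the 4 oocytes of the highest range. YY had 3 oocytes in the lowest and 8 in the middle range, in vitro young 3 and 5, and in vivo young 4 and 4.

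The AY oocytes show what this means in level. Ldhb-ps was at 1312, 3031, 2920.4, 3633, 2767 and 1542 CPM in AY replicates 1 to 6, and Ldhb was at 7817, 5252, 5280.4, 6272, 4969 and 8034 CPM. In replicates 2 to 5 Ldhb-ps was higher and Ldhb lower than in replicates 1 and 6. The same 4 AY oocytes had no Gm4350. In AA, YY and in vitro young, oocytes without Gm4350 did not have a Ldhb-ps share of their own: the 3 such AA oocytes lay in the lowest range, and the 3 of YY and the 1 of in vitro young lay in the middle range. Among 211 pseudogene and parent pairs with at least 50 summed counts in every library, the chi-square per degree of freedom of the share over libraries had a median of 1.77. Ldhb-ps had 224.98, and the next pair had 18.1. This measure uses counts alone and is a description. It grows with the number of counts, and the lowest summed count was 3352 for Ldhb-ps but 514 for the next pair, Gm13058. Ubb-ps, with a lowest summed count of 3493, had 2.9. Some pairs with fewer counts had shares over a wider range, such as Gm10039 and Atp5g1 at 53.2% to 93.5% (lowest summed count 79).

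**Figure D2:**
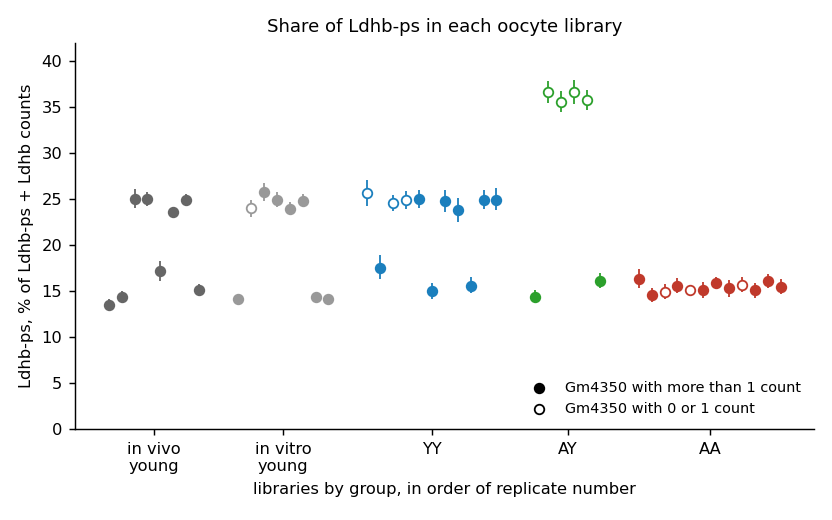
Share of Ldhb-ps in the summed counts of Ldhb-ps and Ldhb (percent, vertical axis) in each of 45 oocyte libraries, in the order of replicate number within each group, with 95% Wilson intervals as bars. Open symbols mark the 11 libraries with 0 or 1 count of Gm4350. The points fall into 3 separate ranges, with all 12 AA libraries between 14.6% and 16.3%.

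The comparison of AA with YY sets aged oocytes in aged somatic cells against young oocytes in young ones. In it 63 of the 363 pseudogenes were called by edgeR's quasi-likelihood test at a Benjamini-Hochberg adjusted p under 0.05, and 48 of these were higher in AA and 15 lower. Of all 8533 genes tested, 27.5% were called, 12.8% higher and 14.7% lower. The pseudogenes had 17.4%, 13.2% and 4.13% in the same order, so the higher share was near the background and the lower share under it. The median log2 change was 0.05 for the pseudogenes and -0.01 for all genes tested. No called pseudogene reached a log2 change of 1, and the median size was 0.48. The same test called 37.5% of the 24 transcribed processed pseudogenes higher (9) and 4.17% lower (1), and 11.2% and 4.28% of the 304 processed ones (34 and 13).

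The calls of AA against YY depended on which YY oocytes were used. With the 5 YY libraries numbered S198 to S202 alone 12 of the 363 were called, and with the 6 numbered S225 to S231 alone 110 were. Of 33 called pseudogenes followed one by one, 4 (Ubb-ps, Fbxw23, Gm13456 and Gm44133) were called with S198 to S202 alone and 29 with S225 to S231 alone. With oocytes that share a pattern of all-or-nothing genes (genes like Oog3, near 0 in some oocytes and far higher in all others) as a random block in limma voom, 27 of the 363 were called, and 21 of the 33. With the counts of such oocytes of a group summed, edgeR called 0, with 23 at an unadjusted p under 0.05. The share of all genes called under these settings is not given here, so the counts do not show whether pseudogenes moved more than other genes.

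Ubb-ps had the smallest p. It ranged from 1311 to 1594 CPM in YY with a median of 1463, and from 1632 to 2287 CPM in AA with a median of 2066. Every AA oocyte stood above every YY oocyte. The log2 change was 0.48 (SE 0.06, adjusted p = 8.37e-07). The parent Ubb changed by 0.45 (adjusted p = 1.1e-06). With S198 to S202 alone Ubb-ps changed by 0.42, and with S225 to S231 alone by 0.52.

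Fbxw23, a transcribed unprocessed member of the oocyte F-box cluster on chromosome 9, ranged from 72.5 to 155 CPM in YY (median 117) and from 141 to 263 CPM in AA (median 187). The groups overlapped, with 9 of 12 AA oocytes above the highest YY oocyte. It rose by a log2 of 0.66 (SE 0.12, adjusted p = 8.21e-05), beside 0.71 for its closest coding relative Fbxw16, and by 0.43 (adjusted p = 0.0469) and 0.87 with the 2 YY sets in the same order. Nlrp4g ranged from 130 to 583 CPM in YY (median 286) and from 406 to 689 CPM in AA (median 581), again with overlap. It rose by 0.84 (adjusted p = 0.00422), beside 1.00 for Nlrp4f. With S198 to S202 alone it stood at 0.31 (adjusted p = 0.268), and with S225 to S231 alone it rose by 1.47.

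The other pseudogenes with the smallest p among those higher in AA were Gm7964 (a copy of Hnrnpk, which codes for an RNA-binding protein), Gm12919 (Kpna2, a nuclear import receptor), Gm13456 (Eef1a1, a translation elongation factor), Ube2n-ps1 (Ube2n, a ubiquitin-conjugating enzyme), Gm18588 (Osbpl9, a lipid transfer gene) and Gm6382 (Rbbp7, a histone-binding protein). They rose by 0.47, 0.62, 0.63, 0.52, 0.98 and 0.41 in this order. Their parents were called higher too, except Osbpl9, which stood at 0.16 (adjusted p = 0.149). With S198 to S202 alone Gm13456 rose by 0.60 (adjusted p = 0.0351). The others were not called in that set, with Gm7964 at 0.23 (adjusted p = 0.193), Gm12919 at 0.24 (adjusted p = 0.275), Ube2n-ps1 at 0.44 (adjusted p = 0.0692), Gm18588 at 0.60 (adjusted p = 0.161) and Gm6382 at 0.12 (adjusted p = 0.525). Of the 4 pseudogenes of the cyclin gene Ccnb1, chosen after their values were seen, Ccnb1-ps, Gm12856 and Gm8416 rose by 0.44, 0.42 and 0.52, and Gm4870 stood at 0.11 (adjusted p = 0.692). The first 3 stood at 0.13, 0.03 and 0.08 with S198 to S202 alone (adjusted p = 0.462, 0.908 and 0.83), against 0.73, 0.82 and 0.97 with S225 to S231 alone. None of the 5 pseudogenes of Hspa8 passed the test, at 0.19 to 0.42. All of these but Gm15459 were chosen after their values were seen.

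Of the 10 pseudogenes with the highest mean CPM, the 5 called in this comparison were Ubb-ps, Dppa3-ps, Gm12226, Nlrp4g and Gm5946. Ldhb-ps stood at -0.04 (adjusted p = 0.882) while its parent Ldhb rose by 0.63 (adjusted p = 1.52e-06). All 12 AA oocytes but only 3 YY oocytes lay in the lowest range of Ldhb-ps share. Within that range Ldhb-ps was at 1125 to 1242 CPM in YY and 1329 to 1842 CPM in AA. Ldhb was at 5836 to 6593 CPM and 7466.5 to 10357 CPM there, and neither gene was tested within the range. E330034G19Rik ranged from 2504 to 3479 CPM in YY (median 3112) and from 2654 to 3354 CPM in AA (median 2874), and its log2 change was -0.03 (SE 0.06, adjusted p = 0.735). Gm1070 stood at 0.19 (adjusted p = 0.267) and Rpl37rt at -0.14 (adjusted p = 0.226). Gm15459 varied widely in YY, from 320.1 to 1144 CPM, and less in AA, from 664 to 957 CPM, and was not called (0.33, adjusted p = 0.145). Dppa3-ps ranged from 853 to 1201 CPM in YY (median 987) and from 903 to 1449 CPM in AA (median 1170). It rose by 0.24 (adjusted p = 0.0242), beside 0.22 for Dppa3, and it was not called without YY replicate 2 (adjusted p = 0.0549), with either YY set alone (0.0867 and 0.0921) or with the random block (0.106). Gm12226, a copy of Oser1, rose by 0.27 (adjusted p = 0.00978), and all 12 AA oocytes stood above the YY median. With S198 to S202 alone it stood at 0.10 (adjusted p = 0.561). Gm5946 stood at 0.32 (adjusted p = 0.351) in that set.

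Gm12346, the copy of Hsp90aa1 shown above, ranged from 256.4 to 361 CPM in YY (median 302) and from 299 to 463 CPM in AA (median 375). In AA 8 of 12 oocytes stood above the highest YY oocyte. It rose by 0.32 (SE 0.09, adjusted p = 0.00375), beside 0.29 (adjusted p = 0.00221) for Hsp90aa1 and 0.34 (adjusted p = 0.00664) for the other copy, Gm5844. Gm12346 had medians of 335 CPM in S198 to S202 and 277.4 CPM in S225 to S231. Its log2 change was 0.20 (adjusted p = 0.287) with the former alone and 0.43 (adjusted p = 0.000574) with the latter alone.

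Among pseudogenes lower in AA, Gm44133 of the chromosome 6 group ranged from 179.9 to 336 CPM in YY (median 227) and from 123 to 238 CPM in AA (median 179), with overlap, and fell by 0.44 on the log2 scale (SE 0.10, adjusted p = 0.00155). Gm3788, a copy of the actin-binding gene Tmsb10, fell by 0.55 beside -0.53 for Tmsb10. Rps16-ps2 fell by 0.39, Dynlt1-ps1 (a dynein light chain) by 0.34, Gm9517 (Ankrd12) by 0.57, Gm4739 (the chromatin protein gene Hmgb2) by 0.26 and H3f3c (the histone variant gene H3f3a) by 0.68. The calls of Gm4739 (without YY replicate 7, 9 or 10, adjusted p up to 0.065) and H3f3c (without YY replicate 6 or 10, up to 0.0901) were lost when single oocytes were left out. With S198 to S202 alone Gm44133 was the only one of these 7 still called, and H3f3c stood at -0.07 (adjusted p = 0.918). With S225 to S231 alone Dynlt1-ps1 and Gm9517 were not called (adjusted p = 0.0905 and 0.0727). With the random block Gm3788 (adjusted p = 0.0919), Rps16-ps2 (0.0608), Dynlt1-ps1 (0.189), Gm9517 (0.129), Gm4739 (0.15) and H3f3c (0.242) were not called.

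Of the 63 called pseudogenes, 54 had a tested parent, and in 37 of these the parent was called in the same direction. In 1, Gm15772, it was called in the opposite one. Gm15772, chosen after its values were seen, rose by 0.70 (adjusted p = 0.0276) and Rpl26, a large ribosomal subunit gene, changed by -0.42 (adjusted p = 0.04). Without YY replicate 10 or 11 or AA replicate 4 or 7 the call of Gm15772 was lost (adjusted p up to 0.0596). Over all 314 tested pairs, 245 had the same sign. Shared reads can enter both values of a pair, and some pseudogenes have the same parent, so these pairs are not independent. Gm5946 rose by 0.45 (adjusted p = 0.0155) and Bmi1 stood at -0.24 (adjusted p = 0.0532). Of the 254 parents tested, 49 were called higher (19.3%) and 19 lower (7.48%), against 12.8% and 14.7% of all genes tested. Of 64 ribosomal protein genes tested, 4 were called higher and 4 lower (6.25% each). Of 46 pseudogenes of ribosomal protein genes, 2 were called higher and 2 lower (4.35% each). Of 32 tested genes from a list of common sources of processed copies, such as Eef1a1, Ubb and Hmgb2, 6 were called higher (18.8%) and 4 lower (12.5%). Of 86 coding genes of oocyte multicopy families (Nlrp, Obox, Pramel, Oog and others), 35 were tested. Of these 35, 19 were called higher (54.3%) and 1 lower (2.86%).

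**Figure D3:**
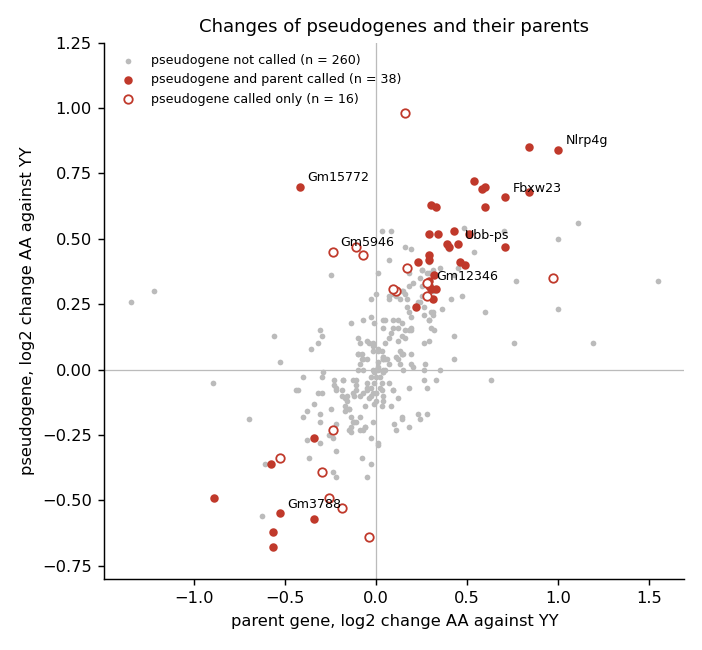
Log2 change of 314 pseudogenes (vertical axis) against that of the parent gene (horizontal axis), AA against YY. Filled red points are the 38 pairs in which both were called, open red points the 16 in which only the pseudogene was called, and grey points the 260 pseudogenes that were not called. Gm15772 stands alone in the upper left among the filled points.

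The summed level of 14 granulosa and cumulus cell markers was 655 to 1211 CPM in AA, 541 to 832 CPM in YY and 839.9 to 1408 CPM in AY, with Amh, 1 of the 14, at 0 in all 3 groups. The 12 oocyte markers summed to 15739.6 to 23382 CPM in AA and 15115 to 21249 CPM in YY. The part of both lists in the changes was not tested. The 10 theca and stroma markers summed to at most 9.74 CPM in any library.

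**Figure D4:**
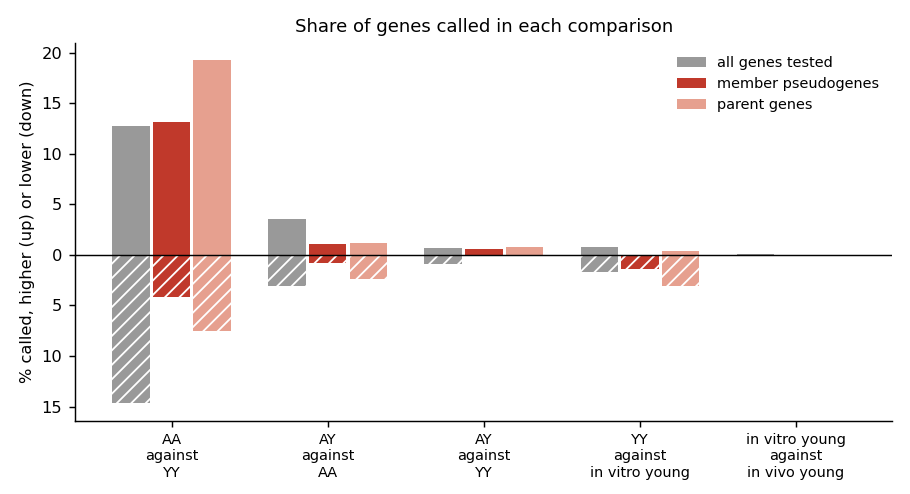
Percentage of all genes tested (grey), of the 363 pseudogenes (red) and of their tested parents (pink) that were called at an adjusted p under 0.05, drawn upward when higher in the group named first and downward (hatched) when lower, for 5 comparisons. For AA against YY the upward bars stand at 12.8%, 13.2% and 19.3%, the downward bars at 14.7%, 4.13% and 7.48%.

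AY was compared with AA, which sets aged oocytes in young somatic cells against aged oocytes in aged ones. Here 7 of the 363 pseudogenes were called (1.93%), 4 higher and 3 lower in AY, against 6.59% of all genes tested, 3.52% higher and 3.07% lower. Unadjusted p was under 0.05 for 40 of the 363 pseudogenes, against 1869 of all 8533 genes tested. Of the 254 parents tested, 3 were called higher (1.18%) and 6 lower (2.36%).

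Rps16-ps2 and 9330102E08Rik were the 2 of the 7 whose groups did not overlap. Rps16-ps2 was at 85.5, 119, 108, 100.2, 91.8 and 90.9 CPM in AY replicates 1 to 6 and ranged from 48.4 to 85.05 CPM in AA (median 62.7). Every AY oocyte lay above every AA oocyte, and the log2 change was 0.61 (SE 0.14, adjusted p = 0.00846). Rps16, whose coding sequence is the same, was at medians of 14.8 and 14.0 CPM with a change of 0.12 (adjusted p = 0.875).

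The translated unprocessed pseudogene 9330102E08Rik was at 42.3, 50.1, 33.9, 43.5, 43.2 and 28.2 CPM in AY and ranged from 61.2 to 89.3 CPM in AA (median 74.04). Every AY oocyte lay below every AA oocyte, and the fall was 0.89 on the log2 scale (SE 0.20, adjusted p = 0.00609). In YY it ranged from 31.3 to 103 CPM, with a median of 84.5 in libraries S198 to S202 and of 40.1 in libraries S225 to S231.

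Gm8801, an unprocessed pseudogene on chromosome 17 without a parent, was at 314, 324, 327, 297, 290.0 and 220.3 CPM in AY and ranged from 162.5 to 267 CPM in AA (median 193). All AY oocytes but replicate 6 lay above the AA range, and the change was 0.55 (adjusted p = 0.00194). Gm19945, a copy of the cell cycle gene Cks2, rose by 0.72 (adjusted p = 0.0407), and Gm6264, related to Sp140, fell by 0.74 (adjusted p = 0.0266). Gm12346 was at 357, 325.5, 242.5, 327, 279.5 and 260.0 CPM in AY, of which 3 lay below the AA range, and fell by 0.36 (adjusted p = 0.0287). Hsp90aa1 changed by -0.26 (adjusted p = 0.0642), which did not pass the test.

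Ldhb-ps was the last of the 7. It ranged from 1329 to 1842 CPM in AA (median 1635), and the 4 AY oocytes of the highest Ldhb-ps share lay above this range while replicate 1 lay below it. The log2 change was 0.65 (SE 0.17, adjusted p = 0.0182), and without AY replicate 4 it was no longer called (adjusted p = 0.056). Ldhb fell by 0.49 (adjusted p = 0.00365), and this was the 1 pair of the comparison in which both were called in opposite directions. The call of Gm12346 was lost without AY replicate 3, 5 or 6 or AA replicate 3 or 5 (adjusted p up to 0.0907), that of Gm6264 without AY replicate 1, 3, 5 or 6 (up to 0.0846), and that of Gm19945 without AY replicate 1, 2 or 6 or AA replicate 4, 5 or 11 (up to 0.158). Under the random block on the all-or-nothing pattern 1 of the 7 calls, Gm8801, was made (adjusted p = 0.042).

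AY was also compared with YY, which sets aged against young oocytes in young somatic cells. There 2 of the 363 pseudogenes were called (0.551%), both higher in AY, against 1.62% of all genes tested, 0.715% higher and 0.902% lower. Unadjusted p was under 0.05 for 38 of the 363 pseudogenes, against 1202 of all 8533 genes tested. Ubb-ps ranged from 1694 to 1974 CPM in AY (median 1815), above all YY oocytes, and rose by 0.33 (SE 0.08, adjusted p = 0.0148), beside 0.34 for Ubb. Gm13456 ranged from 32.1 to 63.4 CPM in YY (median 44.7) and from 56.7 to 109.6 CPM in AY (median 76.1), with 5 of 6 AY oocytes above the YY range. It rose by 0.78 (SE 0.16, adjusted p = 0.00691), while Eef1a1 was not called. The 6 YY libraries S225 to S231 alone gave 36 calls and the 5 others 6, without the call of Ubb-ps in the latter (adjusted p = 0.0986). With the random block neither Ubb-ps (adjusted p = 0.0647) nor Gm13456 (0.0701) was called. The count was 4 without YY replicate 7 and 5 without AY replicate 6.

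These comparisons share their groups, so the values of a pseudogene in them are not independent. Side by side, Ubb-ps changed by 0.48 in AA against YY, -0.15 (adjusted p = 0.234) in AY against AA and 0.33 in AY against YY. Gm12346 changed by 0.32, -0.36 and -0.04 (adjusted p = 0.925) in the same order, and Rps16-ps2 by -0.39 and 0.61 in the first 2.

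**Figure D5:**
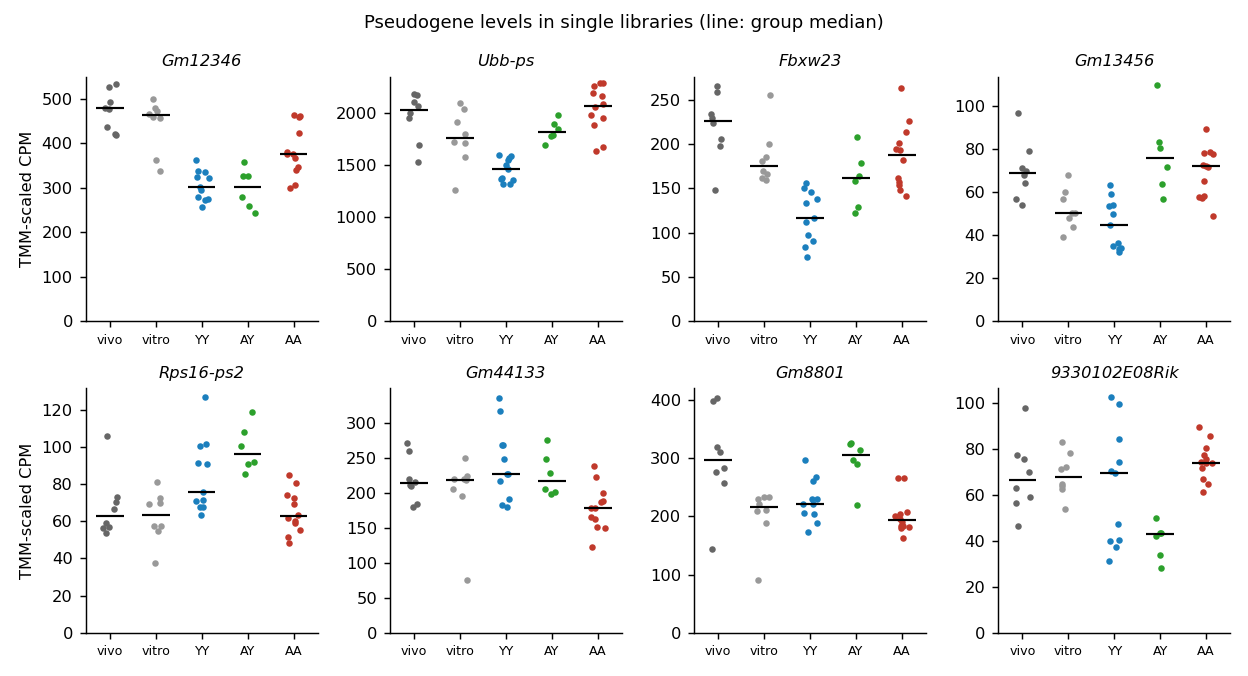
TMM-scaled CPM of 8 pseudogenes in each library of the 5 groups, with a line at the group median and axes starting at 0. Each point is 1 oocyte. Ubb-ps in AA and AY lies above all YY points, and 9330102E08Rik in AY lies below all AA points.

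YY against in vitro young compares cultured young oocytes with and without the exchange of the oocyte. Here 5 of the 363 pseudogenes were called, all lower in YY (1.38%), against 2.48% of 8749 genes tested, 0.777% higher and 1.7% lower. Unadjusted p was under 0.05 for 53 of the 363 pseudogenes, against 1455 of all 8749 genes tested. Gm12346 ranged from 338 to 498 CPM in vitro (median 462), and 10 of 11 YY oocytes lay below this range. It fell by 0.54 (SE 0.09, adjusted p = 0.000495), beside -0.58 for Hsp90aa1 and -0.41 (adjusted p = 0.0168) for Gm5844. Fbxw23 ranged from 159.8 to 255.6 CPM in vitro (median 175), above all 11 YY oocytes, and fell by 0.66 (adjusted p = 0.00383), as Fbxw16 did.

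The remaining 2 were copies of ribosomal protein genes. Rps6-ps4 ranged from 23.8 to 53.4 CPM in vitro (median 31.9) and from 12.7 to 31.3 CPM in YY (median 19.3), and fell by 0.75 (adjusted p = 0.0214). Gm14303, a copy of Rps29, fell by 0.67 (adjusted p = 0.0371). The call of Gm5844 was lost without in vitro young replicate 6, 7 or 8 (adjusted p up to 0.0583), that of Rps6-ps4 without replicate 5 or 7 (up to 0.099), and that of Gm14303 without any 1 of 11 oocytes, in vitro young replicates 1, 2 and 5 to 8 and YY replicates 1, 3, 5, 6 and 7 (up to 0.0982). The count was 2 without in vitro young replicate 7 and 3 without replicate 5, 6 or 8. It was 26 with YY libraries S225 to S231 alone, among them Gm12346, Fbxw23 and Gm5844 but not the other 2. With S198 to S202 alone Gm12346 was called (adjusted p = 0.0497), and Fbxw23 (0.114), Gm5844 (0.219), Rps6-ps4 (0.0539) and Gm14303 (0.0542) were not. The 12 oocyte markers summed to 15115 to 21249 CPM in YY and 17404 to 27218 CPM in vitro, and their part in these changes was not tested.

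In vitro against in vivo young oocytes, the comparison of cultured with uncultured ones, 0 of the 363 pseudogenes were called by edgeR, against 0.137% of all genes tested. Unadjusted p was under 0.05 for 23 of the 363, against 844 of all 8749 genes tested. limma voom called 0 as well and DESeq2 called 1, Gm6104 (log2 change 0.94, adjusted p = 0.0308), a copy of the chromatin protein gene Hmgb3. Without in vivo young replicate 6, edgeR called 1, Gm8801 (-0.66, adjusted p = 0.0296). The median log2 change of the pseudogenes was -0.07, with 136 of 363 above 0. For all genes tested it was -0.0, with 4303 of 8749 above 0. Some pseudogenes have the same parent, so their signs are not independent, and the difference was not tested. In vivo, Gm12346 ranged from 417 to 533 CPM (median 478), and it changed by -0.09 (SE 0.09, adjusted p = 0.82).

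Gm12346 thus had medians of 478 CPM in vivo, 462 in vitro, 375 in AA, 303 in AY and 302 in YY. In this order in vivo and in vitro young did not differ beyond their spread, nor did AY and YY (adjusted p = 0.82 and 0.925). AA and in vitro young, of which the ranges overlap, were not tested against each other.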

How the data were processed

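Each library was amplified from a lysed oocyte with a NEBNext low-input kit, per the labels' protocols. The deposited table holds raw read counts per gene as whole numbers. HTSeq 0.11.0, STAR 2.7.8a and the build mm39 are named in the submitters' processing notes. Strand and multi-mapping settings are not given in the sources used here, and reads carry no molecular identifiers, so intervals cover counting error only. The pseudogenes and gene lists were chosen with earlier results of these data known.

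From the counts, edgeR 4.0.16 in R 4.3.3 was fitted to all genes (TMM, filterByExpr by group with minimum count 10 and minimum total 15, robust quasi-likelihood test, Benjamini-Hochberg adjustment). YY, AY and AA shared 1 fit, and YY and both controls another. All 363 pseudogenes passed the filter in both. Standard errors were derived from the F statistic. Levels per group are TMM-scaled CPM, and means over all 45 libraries are unscaled CPM. TMM factors were 0.947 to 1.07. Within groups, all 192 pairs of libraries differed by more than counting noise (chi-square per degree of freedom at least 2.08). The fit was tested on simulated data.

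Parents were the symbol before -ps or else the best blastn 2.17.0 match (at least 50% covered, 70% identity) among GENCODE M21 coding transcripts. 362 pseudogenes had an M21 transcript. All-or-nothing genes had a gap of at least 3 log2 units between neighbouring libraries. There were 8, which gave 10 patterns over the oocytes. Named were Gm12346, the 10 highest by mean CPM, up to 8 called per direction and comparison by smallest p, those with such a gap, and 3 on each side of the level limit, with parents and hosts. 1 gene pair that the rule named is not reported here. Alternatives were RLE size factors, DESeq2 1.42.0, limma 3.58.1 voom, 2 other filters, other sets of libraries, a replicate block, oocytes of 1 pattern as a block or summed, and each oocyte left out.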

Additional observations from a re-analysis of the deposited data

Results flagged for a closer look

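In groups of 4 to 10 oocytes, 9 values stood far from the rest of their group, by a gap larger than Dixon's 95% limit, among 111 combinations of pseudogene and group looked at. Chance alone marks about 1 in 20 groups. In vivo young replicate 6 was high for 3 pseudogenes of ribosomal protein genes, with Rpl37rt at 676 CPM (others 282 to 405), Rps16-ps2 at 106 CPM (others 53.8 to 73.04) and Gm14303 at 64.4 CPM (others 27.2 to 44.4). In vitro young replicate 2 was low for Gm44133, at 76.05 CPM (others 195 to 249), and for Gm8801, at 91.5 CPM (others 189 to 233). It is the in vitro oocyte without Gm4350. AY replicate 6 was low for Gm8801, at 220.3 CPM (others 290.0 to 327), and high for Dynlt1-ps1, at 106 CPM (others 71.2 to 82.3). In vitro young replicate 5 was high for Fbxw23, at 255.6 CPM (others 159.8 to 199.8), and replicate 7 for Rps6-ps4, at 53.4 CPM (others 23.8 to 37.4).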

How the results depend on the processing

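The number of pseudogenes called (63 for AA against YY, 7 for AY against AA, 2 for AY against YY, 5 for YY against in vitro young and 0 for in vitro against in vivo young) was within 1.5 times of this with RLE size factors and with the pseudogenes left out of the scaling. DESeq2 gave 12, 4, 8 and 1 in the last 4 comparisons, and limma voom gave 14, 4 and 14 in the middle 3. Without a filter on low counts AY against YY had 7, with all 45 libraries in 1 fit YY against in vitro young had 9, and with only the groups compared AY against AA had 19. With the pattern of all-or-nothing genes as a random block the counts were 27, 1, 0, 3 and 1, and with patterns summed 0 in every comparison. YY libraries S198 to S202 alone gave 12 for AA against YY and 6 for AY against YY, and libraries S225 to S231 alone gave 110, 36 and, for YY against in vitro young, 26. Leaving out 1 oocyte at a time gave 46 to 75, 5 to 9, 2 to 5, 2 to 6 and 0 to 1. No named change that was called turned its direction under any of these settings, and why counts moved was not tested. Shares of all genes called under each setting are not given here, so these counts cannot set pseudogenes apart from other genes.

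The replicate numbers are not stated to mark a shared animal or day. The correlation of same-numbered deviations ran from -0.208 to 0.242. It passed 0.1 in 2 of 11 pairs for AA against YY, 0 of 6 for AY against AA and 2 of 6 for AY against YY. For YY against in vitro young it did so in 0 of 8, and for in vitro against in vivo young in 4 of 8. Oocytes with different numbers were not compared in this way, so these values cannot show whether the numbers pair the oocytes. With the replicate number as a block the counts were 68, 24, 3, 4 and 0. Depth limits pseudogenes near 20 CPM, which had few counts in the shallowest library, and its part in the calls was not tested.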
